A study of Mus musculus with 44 samples.

Results

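The livers described here are the 8 livers of 26-month-old mice on a control diet (CD), of 44 samples in the series, chosen by their level of S100a8 as 2 sets. A liver was placed in the inflamed set when S100a8 reached 10 CPM, the count per 1e+06 counts of its library, and in the quiet set below that. The inflamed set held 4 livers, with S100a8 at 241.36 CPM (replicate 3), 142.99 CPM (replicate 6), 22.637 CPM (replicate 7) and 22.303 CPM (replicate 5). The quiet set held the other 4, at 1.3535 CPM (replicate 2), 1.1772 CPM (replicate 4), 0.86524 CPM (replicate 1) and 0.73035 CPM (replicate 8). The members just inside and just outside the limit thus stood at 22.303 and 1.3535 CPM. These values chose the sets, so every difference between inflamed and quiet livers below is a description with no test, and all genes but S100a8 are what was described.

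S100a8 encodes a subunit of calprotectin, a calcium-binding protein that neutrophils and monocytes store in large amounts. The liver is built mainly of hepatocytes, which secrete plasma proteins and carry out lipid, bile acid and drug metabolism, and its sinusoids hold resident macrophages called Kupffer cells. When leukocytes enter an inflamed liver, they bring their own transcripts, and hepatocytes are known to raise acute-phase proteins and to lower parts of their metabolic program. In male mice, pulses of growth hormone keep a set of hepatocyte genes high, among them the major urinary proteins.

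RNA was measured in whole liver and whole brain of C57BL/6 male mice. CD livers came from mice kept on the control diet for the experiment, after standard chow before it, and ketogenic diet (KD) livers from mice that had alternated the KD with the control diet every other week from 12 months of age. Both sets of livers were taken at 26 months, during a week on the control diet and in the dark phase, with 8 mice per diet. The brains comprise 8 CD and 8 KD mice of 26 months and 5 CD and 7 KD mice of 12 months, the last after 1 week of KD. RNA of a whole organ cannot tell fewer cells of a type from less RNA per cell, and this holds for every gene below.

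The 4 inflamed libraries held 10637025 to 12682087 counts and the 4 quiet libraries 8090281 to 12322803, so depth was of the same order in both. Quiet liver 1 stood apart from the other quiet livers: counts of the predicted gene Gm10800 made up 1.614% of its library, against 0.002101% to 0.003725% in the other 3, and 44980 genes had a count, against 25030 to 25651. In the inflamed livers Gm10800 held 0.002031% to 0.005802%. Liver markers were present in every liver, since Alb, the gene of serum albumin, had 7873 to 11779 CPM in the inflamed livers, against 15143 to 18573 CPM in the quiet livers. Defining transcripts of pancreas (Prss2, Cpa1) and fat (Adipoq, Plin1) were at 0 to 1.64 CPM in the inflamed livers and 0 to 3.87 CPM in the quiet livers, the highest in quiet liver 1. The 10 most abundant genes took 6.096% to 7.147% of the inflamed libraries, against 8.879% to 10.44% of the quiet libraries. The word inflamed is used for the set because several leukocyte and cytokine transcripts were higher in it, as given below, although 4 of the best known acute-phase transcripts were not.

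Of 18002 genes with enough counts to compare, 2682 were counted as higher in the inflamed livers (14.9%, S100a8 included) and 2607 as lower (14.5%). A gene was counted when all 4 inflamed livers lay above, or below, all 4 quiet livers and the means of log2(CPM + 0.5) differed by at least 1. The rule used this contrast, so nothing is read from these shares. The genes counted as higher took 18.2% to 24.5% of all counts in the inflamed livers, 3.6% to 11.8% in the KD livers and 3.34% to 4.91% in the quiet livers. Those counted as lower took 12.7% to 20.5% in the inflamed livers, 29.0% to 41.4% in the KD livers and 41.1% to 42.3% in the quiet livers. The CPM values of genes other than S100a8 were scaled by the trimmed mean of M-values (TMM), and the median gene then differed by -0.0219. Scaled by total counts alone the median gene differed by 0.295, with 3683 genes counted as higher and 1726 as lower, so that the higher share of counted genes was 68.1% in place of 50.7%. Without quiet liver 1 the counts were 3231 higher and 2639 lower.

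**Figure D1:**
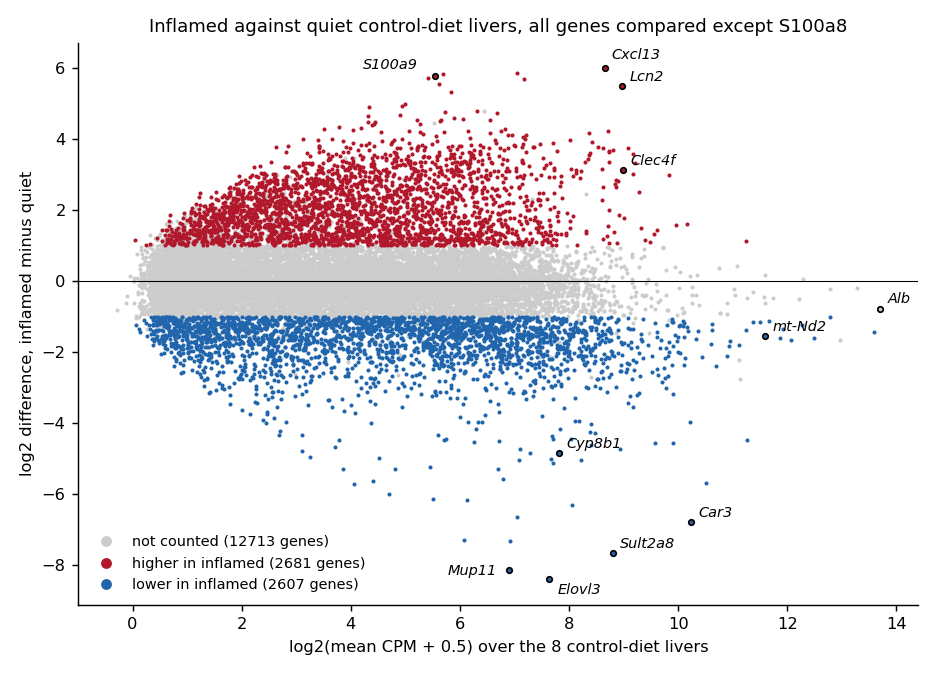
Each point is a gene, with its mean level over the 8 CD livers (log2 CPM) on the x axis and the inflamed minus quiet difference (log2) on the y axis. The 2681 genes other than S100a8 counted as higher, the 2607 counted as lower and the 12713 others are drawn in separate colours, and counted genes are found over the whole range of levels.

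In what follows, values per liver are given in falling order of S100a8, as livers 3, 6, 7 and 5 of the inflamed set and livers 2, 4, 1 and 8 of the quiet set. The genes named are those of widest difference overall and in each list, and defining cell markers; a few others were chosen after their values were seen and are listed with the processing. A log2 difference is followed by its standard error over the 4 + 4 livers. Where livers 3 and 6 are set against livers 7 and 5, the pairs follow the S100a8 values that chose the sets. Such shares are descriptions throughout. A count of 0 allows up to 0.197 to 0.241 CPM in an inflamed liver and up to 0.262 to 0.401 CPM in a quiet liver, taking 3 counts as the limit and counting error alone.

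Among abundant genes, the widest gaps above the quiet livers belonged to a B cell chemokine, granule and matrix enzymes of neutrophils, and genes of clotting and platelets. Cxcl13, the chemokine that draws B cells into follicles, had 168.1, 1934, 651 and 394 CPM in the inflamed livers, against 2.08, 30.6, 1.34 and 35.3 CPM in the quiet livers. Liver 6 held the most and liver 3 the least of the inflamed set, so its order was not that of S100a8, and the groups did not overlap (log2 difference 5.98 ± 1.36). S100a9, the partner of S100a8 in calprotectin, lies beside it on chromosome 3, 90692632 to 90695721. It had 217, 123, 14.7 and 13.3 CPM in the inflamed livers, against 0.893, 0.0988, 0.267 and 0.525 CPM in the quiet livers. Livers 3 and 6 were high, livers 7 and 5 intermediate and all quiet livers near 0, for a difference of 5.76 ± 1.06. Lcn2, lipocalin 2, an iron-sequestering protein made by neutrophils and by stressed hepatocytes, had 1352, 1125, 985 and 462 CPM in the inflamed livers, against 18.2, 44.7, 12.2 and 16.0 CPM in the quiet livers. Here the 4 inflamed livers were within a few fold of each other and far above all quiet livers (5.48 ± 0.52).

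Mmp9, a gelatinase carried in neutrophil granules, had 235, 811, 81.5 and 14.1 CPM in the inflamed livers, against 1.29, 2.07, 2.94 and 1.66 CPM in the quiet livers. Liver 6 exceeded liver 3, and liver 5 was lowest of the inflamed set (5.67 ± 1.24). F13a1, the A subunit of clotting factor XIII, which macrophages and platelets make, had 148, 136, 66.3 and 33.6 CPM in the inflamed livers, against 0.0992, 1.88, 3.21 and 1.40 CPM in the quiet livers. Pf4, platelet factor 4, had 127, 190.2, 44.2 and 76.8 CPM in the inflamed livers, against 0.595, 1.48, 0.935 and 10.7 CPM in the quiet livers. Quiet liver 8 held more Pf4 than the other quiet livers, and the groups stayed apart (5.30 ± 0.88). Others of the 12 named for size were Chil3 (5.82), Ltf (5.70), Itgam (4.97), Mpo (4.93) and Mmp8 (4.89), all known from neutrophils or macrophages. In 11 of these 12 genes both livers of highest S100a8 lay above both others, against 22.1% of all genes. The genes and the pairs were chosen on the same livers, so nothing is read from this share. In all 12 the median KD liver lay below every inflamed liver. In 3 of the 12 a single KD liver reached the inflamed range. KD liver 12 had 349.7 CPM of Cxcl13 and also reached the range of Mpo, and KD liver 13 had 761 CPM of Lcn2 with S100a8 at only 1.1304 CPM.

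**Figure D2:**
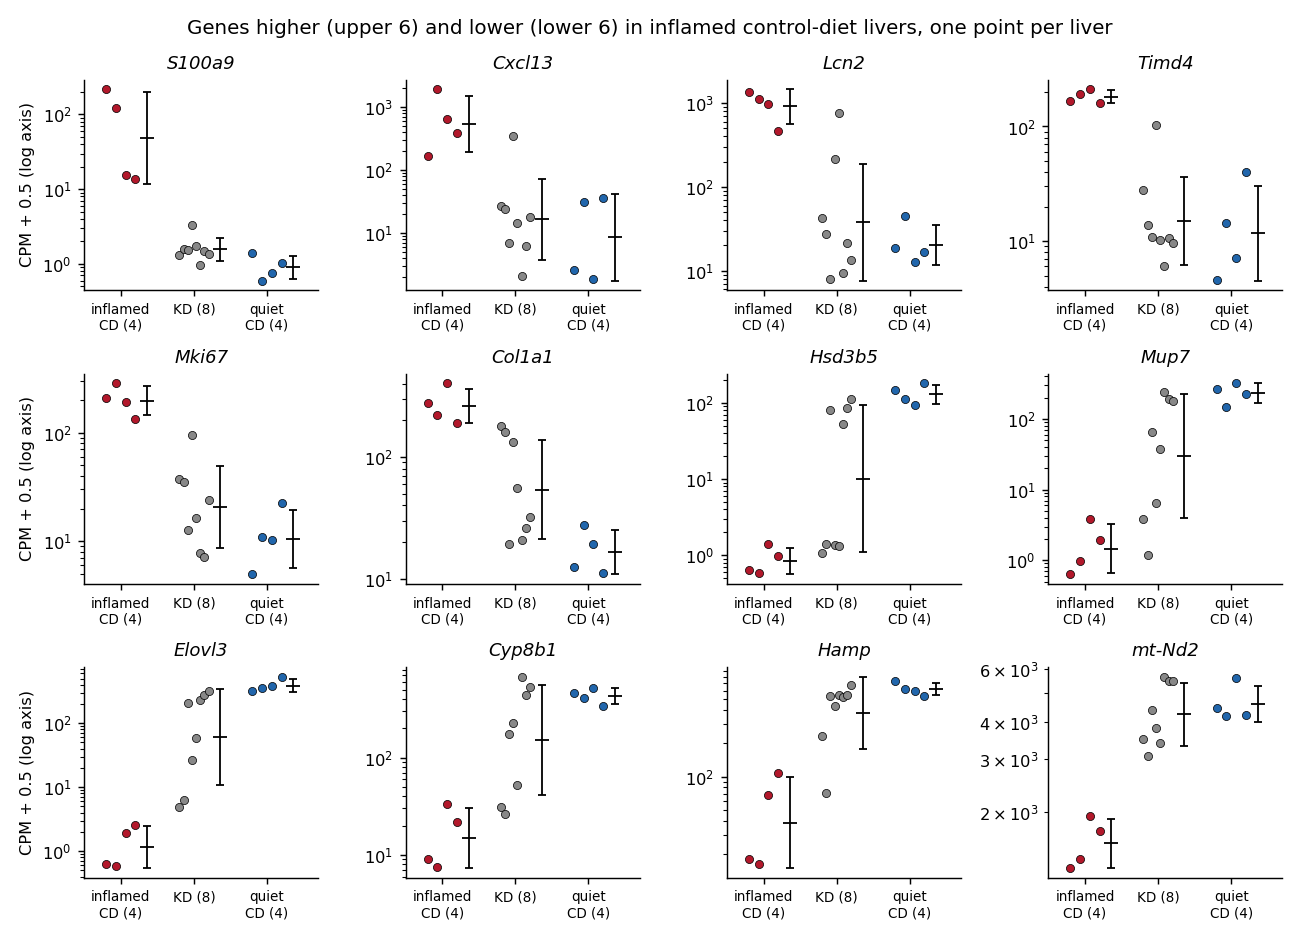
CPM per liver (log axis, CPM + 0.5) of 12 genes in the 4 inflamed CD livers, the 8 KD livers and the 4 quiet CD livers; each point is a liver, and the bar and whisker are the mean ± SD on the log2 scale. S100a9, Cxcl13, Lcn2, Timd4, Mki67 and Col1a1 are higher in every inflamed liver than in any quiet liver, and Hsd3b5, Mup7, Elovl3, Cyp8b1, Hamp and mt-Nd2 are lower in every one.

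The promoters of the first 4 of these genes held in the RefSeq promoter table (assembly GRCm38.p6) are shown because these genes set the inflamed livers apart most. Each run is the 250 bases before the annotated start, 5′ to 3′ on the gene's strand, and capitals would mark a motif searched. Cxcl13 is chr5:95956689-95956938 on the plus strand, Chil3 chr3:106167565-106167814 on the minus strand, S100a9 chr3:90695722-90695971 on the minus strand and Ltf chr9:111019042-111019291 on the plus strand.
Cxcl13: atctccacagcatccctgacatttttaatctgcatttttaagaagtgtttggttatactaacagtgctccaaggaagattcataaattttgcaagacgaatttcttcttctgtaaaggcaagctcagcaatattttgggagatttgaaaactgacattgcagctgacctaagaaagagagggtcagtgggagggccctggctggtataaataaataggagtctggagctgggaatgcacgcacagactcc
Chil3: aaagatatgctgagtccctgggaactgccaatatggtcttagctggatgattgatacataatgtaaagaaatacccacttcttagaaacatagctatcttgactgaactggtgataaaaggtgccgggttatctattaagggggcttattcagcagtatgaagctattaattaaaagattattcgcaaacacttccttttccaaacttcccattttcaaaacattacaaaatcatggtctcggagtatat
S100a9: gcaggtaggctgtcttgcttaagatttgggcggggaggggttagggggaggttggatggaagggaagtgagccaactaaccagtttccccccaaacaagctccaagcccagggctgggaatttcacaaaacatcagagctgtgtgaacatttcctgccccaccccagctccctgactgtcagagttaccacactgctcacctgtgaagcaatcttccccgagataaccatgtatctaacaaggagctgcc
Ltf: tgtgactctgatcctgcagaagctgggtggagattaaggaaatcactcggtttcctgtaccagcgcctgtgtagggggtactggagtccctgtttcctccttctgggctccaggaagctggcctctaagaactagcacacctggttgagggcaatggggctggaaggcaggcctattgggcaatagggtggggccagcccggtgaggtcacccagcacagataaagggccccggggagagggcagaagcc
The motifs searched on both strands were GAGGAAGT for PU.1, the myeloid factor encoded by Spi1, TTGCGCAA and TTGCNNCAA for C/EBP, GGANTTTCC for NF-kB and TTTCCCGC for E2F. None of these 5 strings is in the 4 runs, which says only that these letters are not in these windows.

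The promoters of Mpo, Mmp8 and Pf4 are shown because they are those of the 12 named genes that hold the PU.1 string, and they were chosen after this was seen. Mpo is chr11:87793534-87793783, Mmp8 chr9:7558179-7558428 and Pf4 chr5:90772185-90772434, all on the plus strand, and the capitals mark GAGGAAGT or its reverse complement.
Mpo: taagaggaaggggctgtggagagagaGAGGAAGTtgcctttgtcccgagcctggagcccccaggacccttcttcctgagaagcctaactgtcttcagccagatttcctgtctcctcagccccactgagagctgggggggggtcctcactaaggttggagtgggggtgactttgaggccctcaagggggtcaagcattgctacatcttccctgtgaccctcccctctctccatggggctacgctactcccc
Mmp8: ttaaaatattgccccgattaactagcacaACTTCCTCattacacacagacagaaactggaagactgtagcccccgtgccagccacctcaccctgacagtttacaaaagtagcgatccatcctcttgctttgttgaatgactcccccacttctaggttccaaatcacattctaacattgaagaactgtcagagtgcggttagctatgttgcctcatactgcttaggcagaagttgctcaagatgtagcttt
Pf4: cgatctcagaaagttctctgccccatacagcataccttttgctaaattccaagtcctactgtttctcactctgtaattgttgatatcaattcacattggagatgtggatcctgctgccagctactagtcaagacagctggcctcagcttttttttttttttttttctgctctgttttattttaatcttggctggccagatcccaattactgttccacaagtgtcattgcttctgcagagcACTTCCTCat
Between the string and the start lie 216 bases in Mpo, 213 bases in Mmp8 and 2 bases in Pf4. Of the genes counted as higher, 1885 had a promoter in the table and 5.04% of these held the PU.1 string, against 2.54% of all 11730 matched genes, 1.6% of the 1688 matched genes counted as lower and 2.44% of all 27025 promoters of the table. Within 49 bases of the start the string was in 2.07% of promoters of higher genes, against 0.878% of all matched genes. The NF-kB string was in 1.49% of promoters of higher genes against 1.08% of all, the looser C/EBP string in 1.86% against 1.44%, the palindromic C/EBP string in 0.265% against 0.256%, and the E2F string in 1.33% against 1.66%. TTGCGCAA is its own reverse complement, and no searched string contains another. These shares are descriptions, and a match is not a bound site.

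Neutrophil granule and receptor genes stood higher, and they were the list in which the inflamed livers differed most among themselves. Of 30 listed genes 22 had enough counts, and 16 of these were counted as higher and 1 as lower, with a median log2 difference of 3.99. Csf3r, the receptor for granulocyte colony-stimulating factor, had 199.99, 113, 75.6 and 86.1 CPM in the inflamed livers, against 7.24, 14.3, 9.22 and 13.6 CPM in the quiet livers. All inflamed livers exceeded all quiet ones, with liver 3 highest (3.31 ± 0.38). Mpo, myeloperoxidase, made by granulocyte precursors in the marrow, had 155, 74.1, 3.32 and 7.04 CPM in the inflamed livers, against 0.0992, 0.198, 1.34 and 0 CPM in the quiet livers. Livers 3 and 6 were high, and livers 7 and 5 lay close to the highest quiet liver, which was liver 1. Ltf, lactotransferrin of secondary granules, had 155, 161, 8.63 and 12.5 CPM in the inflamed livers, against 0, 0, 2.27 and 0.0875 CPM in the quiet livers. In 20 of the 22 genes livers 3 and 6 both lay above livers 7 and 5, against 22.1% of all genes. The member counted as lower was Wfdc21 (-1.09).

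Several granule genes were too low in most libraries to be compared and are given by their levels alone. Ngp, neutrophilic granule protein, had 476, 395, 16.9 and 29.5 CPM in the inflamed livers, against 0.0992, 0.0988, 0.802 and 0.175 CPM in the quiet livers. Retnlg, a resistin-like protein of neutrophils, had 113, 46.2, 9.51 and 5.08 CPM in the inflamed livers, against 0.595, 0.198, 0.534 and 0.438 CPM in the quiet livers. Both followed S100a8 in being high in livers 3 and 6. Ly6g, the surface marker used to define mouse neutrophils, was at 4.33, 3.21, 0.664 and 0.0782 CPM in the inflamed livers, against 0, 0, 0.802 and 0 CPM in the quiet livers. The inflamed and quiet ranges of Ly6g overlapped through quiet liver 1, the library with Gm10800 at 1.614% of counts. Inflamed liver 5 was itself under the level that a count of 0 allows. In all, 146 genes outside the comparison had at least 1 CPM in every inflamed liver, and 129 of these were under 1 CPM in every quiet liver.

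Monocyte, macrophage and Kupffer cell transcripts were higher in all 4 inflamed livers and more evenly so. Of 28 monocyte and recruited macrophage genes 27 were counted as higher and none as lower (median 3.38), and of 21 Kupffer cell genes 16 were higher and none lower (median 3.38). Timd4, a receptor for dying cells on resident Kupffer cells, had 165, 192, 211 and 160.4 CPM in the inflamed livers, against 4.07, 13.9, 6.55 and 39.8 CPM in the quiet livers. The 4 inflamed livers nearly coincided, and quiet liver 8 was the highest of its set (3.96 ± 0.69). Clec4f, a lectin found on mouse Kupffer cells, had 919.8, 508, 1133 and 998 CPM in the inflamed livers, against 53.2, 96.6, 61.5 and 289 CPM in the quiet livers. Liver 6 was here the lowest inflamed liver (3.12 ± 0.61). Adgre1, which encodes the macrophage antigen F4/80, had 493, 1020.3, 484 and 559 CPM in the inflamed livers, against 21.2, 62.5, 28.7 and 64.7 CPM in the quiet livers. Ly6c2, a marker of inflammatory monocytes, was at 25.1 to 80.1 CPM in the inflamed livers, against 1.88 to 2.36 CPM in the quiet livers. Marco, a scavenger receptor, was the Kupffer gene with the widest spread, at 2.75, 107, 369 and 196 CPM in the inflamed livers, against 0.893, 14.7, 3.61 and 0 CPM in the quiet livers. Liver 3 lay inside the quiet range, so Marco was not counted.

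Receptors for antibody and the phagocyte oxidase were higher in nearly the whole list, with 27 of 29 genes counted and none lower (median 3.53). Trem2, a lipid receptor of macrophages, had 28.1, 60.1, 35.6 and 26.9 CPM in the inflamed livers, against 0.298, 1.19, 0.267 and 3.76 CPM in the quiet livers. The groups were apart by 4.64 ± 0.64. Ncf1, a cytosolic subunit of the oxidase, had 136, 154, 109 and 79.4 CPM in the inflamed livers, against 5.75, 9.39, 4.94 and 14.9 CPM in the quiet livers. Fpr1 and Fpr2, receptors for formylated bacterial and mitochondrial peptides, were higher by 4.23 ± 0.59 and 4.22 ± 0.74. Of 35 lysosome and phagosome genes 20 were higher and none lower (median 1.52), among them Cd68 at 222 to 408 CPM in the inflamed livers, against 11.2 to 55.2 CPM in the quiet livers and the protease gene Lgmn at 510.0 to 1018 CPM in the inflamed livers, against 51.6 to 106 CPM in the quiet livers. Spi1, which encodes PU.1, had 148, 147, 128 and 115 CPM in the inflamed livers, against 6.94, 14.03, 8.28 and 21.7 CPM in the quiet livers. Its 4 inflamed values lay close together and above all quiet values (3.48 ± 0.37).

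Lymphocyte transcripts were higher to a smaller extent, and B cell transcripts were mixed. Of 28 T and NK cell genes 22 were counted as higher and none as lower (median 1.81). Cd4 had 73.2, 67.1, 67.7 and 36.3 CPM in the inflamed livers, against 7.94, 9.58, 3.47 and 3.94 CPM in the quiet livers. All inflamed livers were well above the quiet ones (3.26 ± 0.41). Cd3e, of T cells, was at 7.73 to 19.2 CPM in the inflamed livers, against 2.18 to 4.64 CPM in the quiet livers. Cd8a, of cytotoxic T cells, was at 10.6 to 30.4 CPM in the inflamed livers, against 2.58 to 6.12 CPM in the quiet livers. Of 22 B and plasma cell genes 4 were higher and 1 lower (median 0.817), so most of this list was not counted. The median KD minus quiet difference of these genes was larger, at 1.12. Ms4a1, which encodes the B cell antigen CD20, was at 2.41 to 23.3 CPM in the inflamed livers, against 0.593 to 4.41 CPM in the quiet livers, and the ranges overlapped. Cd22, an inhibitory receptor of B cells, was among the 4 higher, at 29.7 to 64.7 CPM in the inflamed livers, against 3.77 to 5.42 CPM in the quiet livers. In 15 of the 22 B cell genes livers 3 and 6 lay below livers 7 and 5, the reverse of the neutrophil list, against 31.5% of all genes. Dendritic cell genes were higher in 10 of 19 and lower in none (median 1.54). H2-Aa, a chain of MHC class II, was at 343 to 1679 CPM in the inflamed livers, against 42.8 to 183 CPM in the quiet livers.

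Platelet, red cell precursor and stem cell genes were higher in part. In the megakaryocyte and platelet list 9 of 14 were higher and 1, F5, lower (median 1.93), although the summed level of the list was 1093 to 1557 CPM in the inflamed livers, against 1612 to 1811 CPM in the quiet livers. Of 22 erythroid genes 10 were higher and 1, Fech, lower (median 1.95). Slc4a1, the anion exchanger of red cells, had 51.4, 149, 39.8 and 42.4 CPM in the inflamed livers, against 1.89, 1.88, 4.01 and 1.40 CPM in the quiet livers. Alas2, which starts heme synthesis in red cell precursors, was not counted, at 49.4 to 93.2 CPM in the inflamed livers, against 86.0 to 121.2 CPM in the quiet livers. Stem and progenitor genes were higher in 9 of 17 and lower in 1, Hlf (-2.33), with a median of 1.39.

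Signals that recruit and activate leukocytes were broadly higher. Of 42 chemokines and chemokine receptors 23 were higher and 5 lower (median 1.85). Ccl2, which draws monocytes, had 22.2, 43.1, 11.1 and 28.0 CPM in the inflamed livers, against 1.69, 2.27, 1.07 and 5.69 CPM in the quiet livers. Every inflamed liver exceeded every quiet liver (3.11 ± 0.58). Cxcl2, which draws neutrophils, had 9.05, 5.30, 2.36 and 1.95 CPM in the inflamed livers, against 2.18, 0.889, 0.935 and 0.350 CPM in the quiet livers, and its groups overlapped. The 5 lower members were Ackr4, Ccl27a, Ccr9, Cxcl11 and Cxcl12. Ccr1, a chemokine receptor of myeloid cells, had 67.9, 91.9, 4.87 and 4.46 CPM in the inflamed livers, against 0.694, 0.494, 0.534 and 0.0875 CPM in the quiet livers. Livers 3 and 6 were far above livers 7 and 5 in this gene.

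Interleukin 1, inflammasome and pyroptosis genes were higher in 19 of 27 and lower in 1, with a median of 2.57. Il1b had 46.7, 23.05, 6.19 and 27.8 CPM in the inflamed livers, against 1.89, 3.75, 3.61 and 2.89 CPM in the quiet livers. Liver 7 was the lowest inflamed liver and still above all quiet ones (2.64 ± 0.63). Il1rn, the antagonist of the interleukin 1 receptor, was higher by 3.41 ± 0.28. The member counted as lower was Il1rap, the accessory chain of that receptor (-2.82). Toll-like receptor and TNF signalling genes were higher in 28 of 35 and lower in 1, Sod2 (-1.14), with a median of 1.63. Tlr13, a sensor of bacterial ribosomal RNA in mice, had 283, 249, 108 and 145 CPM in the inflamed livers, against 3.97, 8.50, 2.27 and 19.9 CPM in the quiet livers. Tnf had 19.5, 48.1, 13.4 and 15.6 CPM in the inflamed livers, against 0.397, 1.58, 1.34 and 2.71 CPM in the quiet livers. Each of these 2 genes had non-overlapping groups, by 4.73 ± 0.71 and 3.57 ± 0.56.

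Interferon response genes were higher but did not follow S100a8 within the inflamed set. Of 39 type I interferon response genes 21 were counted as higher and none as lower (median 1.42). Oas3, which makes the activator of an antiviral RNase, had 43.3, 16.5, 66.6 and 87.0 CPM in the inflamed livers, against 1.69, 3.36, 4.01 and 12.8 CPM in the quiet livers. The livers of lower S100a8, 7 and 5, held the most. In none of the 39 genes did livers 3 and 6 both exceed livers 7 and 5, and in 32 both were below them, against 5670 of 18002 genes overall (31.5%). Gbp8, a guanylate-binding protein, had 72.9, 71.0, 66.0 and 76.8 CPM in the inflamed livers, against 7.34, 16.4, 5.48 and 17.8 CPM in the quiet livers. Interferon gamma response and antigen presentation genes were higher in 18 of 36 and lower in none (median 1.09).

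Acute-phase proteins showed no common direction. Of 33 genes 5 were counted as higher and 5 as lower (median 0.227). The widest difference upward was that of Lcn2 (5.48), whose levels are given above. Hp, which encodes haptoglobin, had 1287, 1304, 1647 and 1297 CPM in the inflamed livers, against 1309, 1251, 1122 and 1217 CPM in the quiet livers. The inflamed and quiet values of Hp overlapped. Saa1, a serum amyloid A gene, had 49.6, 34.5, 187 and 23.4 CPM in the inflamed livers, against 26.4, 28.7, 9.35 and 33.2 CPM in the quiet livers. Liver 7 stood out, and the groups overlapped. Reads of Saa1 and its near copy Saa2 may be split between them. Orm1 and Fgb, further acute-phase genes of hepatocytes, had differences of 0.93 ± 0.37 and -0.47 ± 0.16 with overlapping groups. Hamp, which encodes hepcidin, the hormone that blocks iron export and that inflammation usually raises, had 17.6, 15.8, 67.6 and 107 CPM in the inflamed livers, against 731, 621, 595 and 539 CPM in the quiet livers. It was lower in every inflamed liver (-4.01 ± 0.69), most in livers 3 and 6. Crp (-1.61) was also lower. Ttr, transthyretin, was lower too (-1.77), and it is a protein known to fall, not rise, in an acute-phase response.

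Complement and iron genes held members in both directions. In the complement list 7 of 27 were higher and 9 lower (median -0.799). The 7 higher were C1qa, C1qb, C1qc, C3ar1, C5ar1, Cfp and Vsig4, which are known from macrophages and other myeloid cells. C1qa had 687, 800.0, 616 and 605 CPM in the inflamed livers, against 28.5, 60.5, 25.1 and 129.8 CPM in the quiet livers. C3, made mainly by hepatocytes, had 5474, 6584, 8266 and 5692 CPM in the inflamed livers, against 7593, 7922, 7331 and 7384 CPM in the quiet livers, and its groups overlapped. Iron handling genes were higher in 5 of 20 and lower in 2, Hamp and Tfr2 (median 0.263). Hmox1, heme oxygenase, which frees iron from heme, was at 313 to 656 CPM in the inflamed livers, against 29.4 to 104 CPM in the quiet livers.

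Proliferation genes were higher in every inflamed liver. Of 57 cell cycle genes 49 were counted as higher and 1, Mcm10, as lower (median 2.43). Mki67, a marker of dividing cells, had 209.7, 285, 189 and 133 CPM in the inflamed livers, against 4.46, 10.4, 9.89 and 21.96 CPM in the quiet livers. The groups did not overlap (4.22 ± 0.50), and quiet liver 8 was the highest of its set. Top2a, a topoisomerase of dividing cells, had 63.3, 83.6, 71.9 and 56.4 CPM in the inflamed livers, against 2.38, 3.66, 5.21 and 8.40 CPM in the quiet livers. In 12 of the 57 genes livers 3 and 6 both exceeded livers 7 and 5, which is near the share of all genes (22.1%). Replication-dependent histone genes, whose reads can be shared between near-identical copies, were higher in 18 of 28 and lower in 2 (median 1.76). The p53 and senescence list was higher in 10 of 22 and lower in 1 (median 0.961). Cdkn1a, which encodes the cell cycle inhibitor p21, had 82.5, 93.7, 69.8 and 67.4 CPM in the inflamed livers, against 18.4, 11.6, 14.4 and 13.5 CPM in the quiet livers. Pmaip1, a p53 target that promotes cell death, was higher by 3.15 ± 0.28.

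The fibroblast and stellate cell list was higher without a member lower, while endothelial and duct cell genes were mixed or near 0. Of 29 stellate cell and fibroblast genes 19 were higher and none lower (median 1.97). The median KD minus quiet difference was 0.781. By the mean log2 level of the list above quiet, KD livers 9 and 10 (1.616 and 1.658) lay just under the lowest inflamed liver (1.666). Col1a1, the main chain of fibrillar collagen, had 278, 221, 403 and 190.3 CPM in the inflamed livers, against 11.9, 27.1, 18.8 and 10.7 CPM in the quiet livers. Liver 7, not liver 3, held the most (3.99 ± 0.38). Lox, which cross-links collagen, had 35.9, 15.5, 18.4 and 8.599 CPM in the inflamed livers, against 0.496, 0.593, 1.74 and 0.612 CPM in the quiet livers. Vim, an intermediate filament of mesenchymal cells and leukocytes, was at 165 to 426 CPM in the inflamed livers, against 29.8 to 41.9 CPM in the quiet livers. Of 28 endothelial genes 8 were higher and 2 lower (median 0.6). The 2 lower, Clec4g (-1.89) and Wnt2 (-2.18), are known from liver sinusoidal endothelium. Bile duct genes were higher in 2 of 13 and lower in 1 (median 0.0186), and of 11 mesothelial genes none was counted. Krt19, the bile duct keratin, was at 0.295 to 1.49 CPM in the inflamed livers, against 0.593 to 1.47 CPM in the quiet livers.

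Fetal liver and tumour-related genes were higher in 7 of 20 and lower in 3 (median 0.974). The KD livers were near this level, with a median KD minus quiet difference of 0.888. By the mean log2 level of the list above quiet, KD livers 9 and 10 (1.424 and 1.465) passed inflamed livers 3, 7 and 5. Those stood at 0.8242, 0.9552 and 1.244, and liver 6 at 1.574. H19, an imprinted noncoding RNA of fetal liver, had 19.99, 112, 15.3 and 17.7 CPM in the inflamed livers, against 0.893, 0.790, 1.47 and 0.437 CPM in the quiet livers. Liver 6 held several times the level of the other inflamed livers (4.40 ± 0.70). Afp, the albumin-like protein of fetal liver, was lower rather than higher, at 12.5 to 13.5 CPM in the inflamed livers, against 18.4 to 24.6 CPM in the quiet livers, and too small a difference to be counted (-0.68). Axin2, Lgr5 and Tbx3, targets of Wnt signalling around the central vein, were the 3 lower members. Glul, glutamine synthetase of the same hepatocytes, had 270.1, 211, 785 and 364 CPM in the inflamed livers, against 1261, 1013, 741 and 1011 CPM in the quiet livers, with overlap through liver 7.

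On the lower side, the widest gaps included hepatocyte genes known to depend on male growth hormone pulses. Elovl3, a fatty acid elongase, had 0.131, 0.0803, 1.40 and 2.03 CPM in the inflamed livers, against 313, 353, 376 and 529 CPM in the quiet livers. Livers 3 and 6 were close to 0, and all inflamed livers lay far below all quiet ones (-8.39 ± 0.57). Hsd3b5, a male-specific steroid-metabolising enzyme, had 0.131, 0.0803, 0.885 and 0.469 CPM in the inflamed livers, against 147, 111, 94.9 and 182 CPM in the quiet livers. All inflamed livers were under 1 CPM (-7.28 ± 0.36). Mup7, a major urinary protein, on chromosome 4, 60066469 to 60070475, had 0.131, 0.482, 3.39 and 1.41 CPM in the inflamed livers, against 266, 147, 319 and 224 CPM in the quiet livers. All inflamed livers were under 4 CPM (-7.30 ± 0.62). All 15 Mup genes with enough counts, of 22 listed, were lower (median -5.22), with a summed level of 12.91 to 1384 CPM in the inflamed livers, 1282 to 5690 CPM in the KD livers and 5174 to 5931 CPM in the quiet livers. The others of the 12 named for size were Mup11 (-8.13), Mup21 (-6.17), Mup19 (-6.00), the sulfotransferase gene Sult2a8 (-7.66), the carboxylesterase gene Ces1f (-6.31), Pitx3 (-5.70), Car3 and the Cyp4a12 pair. In 11 of these 12 genes both livers of highest S100a8 lay below both others, against 31.5% of all genes. Here too the genes and the pairs were chosen on the same livers. These low levels were not found in inflamed livers alone: in 6 of the 12 genes at least 1 KD liver was at or below the highest inflamed liver. Hsd3b5 was at 0.560, 0.885, 0.852 and 0.838 CPM in KD livers 9, 10, 12 and 13, and Mup7 at 3.28 and 0.688 CPM in KD livers 9 and 10. In 3 of these livers, 9, 10 and 13, S100a8 was only 1.1304 to 2.4605 CPM. Mup genes are near-identical copies, so the split of reads among them is uncertain while the sum is less affected.

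Of 24 male-biased growth hormone targets 17 were lower and none higher (median -3.09). Cyp4a12a, a male-biased arachidonate hydroxylase, had 0.131, 0.402, 1.62 and 28.0 CPM in the inflamed livers, against 297, 247, 129 and 355 CPM in the quiet livers. Liver 5 held far more than the other inflamed livers and less than any quiet liver (-6.64 ± 1.28). Cyp4a12b is a close copy that can share its reads. Slco1a1, an organic anion transporter, had 21.2, 16.9, 24.7 and 49.3 CPM in the inflamed livers, against 629, 599, 626 and 740.5 CPM in the quiet livers. Car3, a carbonic anhydrase, had 1.77, 9.72, 73.8 and 111 CPM in the inflamed livers, against 2175, 1948, 3339.6 and 1950.2 CPM in the quiet livers. Livers 3 and 6 were lowest in both of the last 2 genes. Cyp2a4, known as female-biased, was read for comparison and had 0.590, 3.85, 54.1 and 46.5 CPM in the inflamed livers, against 0.0992, 0.889, 2.67 and 0.0875 CPM in the quiet livers. It was high in livers 7 and 5, and the groups overlapped.

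Cytochrome P450 and bile acid genes were lower in most members. Of 49 P450 genes 34 were lower and none higher (median -2.35), and the summed level was 1437 to 5938 CPM in the inflamed livers, against 17960 to 20440 CPM in the quiet livers. Cyp2e1, which oxidises ethanol and acetaminophen, had 26.4, 166, 962 and 374 CPM in the inflamed livers, against 4850.4, 3998, 5211 and 3988 CPM in the quiet livers. Liver 3 was lowest and liver 7 highest of the inflamed set (-4.48 ± 1.10). Of 25 bile acid genes 20 were lower and 1, the exporter gene Abcc4, higher (2.02), with a median of -2.1. Cyp7a1, the rate-limiting enzyme of bile acid synthesis, had 16.1, 14.5, 77.1 and 32.1 CPM in the inflamed livers, against 401, 228, 248 and 154 CPM in the quiet livers. Cyp8b1, which sets the proportion of cholic acid, had 8.52, 6.99, 32.6 and 21.4 CPM in the inflamed livers, against 465, 408, 522 and 336 CPM in the quiet livers. Both genes were lower in every inflamed liver, with log2 differences of -3.11 ± 0.62 and -4.84 ± 0.53. Slc10a1, the uptake carrier for bile acids, was also lower, with a log2 difference of -2.76 ± 0.30.

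Genes of fatty acid oxidation and of fat synthesis were lower in large part. Of 41 fatty acid oxidation and ketone body genes 35 were lower and none higher (median -1.88). Acaa1b, a thiolase of peroxisomes, had 4.85, 7.39, 25.1 and 50.8 CPM in the inflamed livers, against 480.1, 391, 384 and 475 CPM in the quiet livers. Among 25 fatty acid and triglyceride synthesis genes 12 were lower and 1, Scd2, higher (2.90), with a median of -1.97. Thrsp, a regulator of lipid synthesis, had 1.90, 3.53, 106 and 87.5 CPM in the inflamed livers, against 1026, 423, 169 and 283 CPM in the quiet livers. Livers 3 and 6 were near 0, and livers 7 and 5 nearer the quiet range (-4.45 ± 1.54). Fasn, fatty acid synthase, had 111, 224, 886 and 1914 CPM in the inflamed livers, against 7754, 2899.7, 1493 and 2616 CPM in the quiet livers. Liver 5 lay inside the quiet range, so Fasn was not counted (-2.75 ± 1.05). Of 25 cholesterol synthesis genes 13 were lower and none higher (median -1.46). In all 25 genes livers 3 and 6 lay below livers 7 and 5, against 31.5% of all genes.

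Isoforms of sugar metabolism genes differed in direction. Of 30 glycolysis and hypoxia genes 16 were higher and 3 lower (median 1.24). Hk2, a hexokinase of proliferating cells, had 200.3, 107, 141 and 101 CPM in the inflamed livers, against 5.46, 7.31, 6.68 and 12.4 CPM in the quiet livers. All inflamed livers lay far above all quiet ones (4.03 ± 0.33). Pkm, pyruvate kinase of muscle and leukocytes, was higher by 3.88 ± 0.39, whereas Pklr, the liver form, was lower (-2.74). Vegfa, a target of hypoxia signalling, was also lower (-1.04).

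Hepatocyte identity and mitochondrial genes were lower by smaller amounts. Of 38 hepatocyte identity genes 31 were lower and none higher (median -1.71). Otc, a urea cycle enzyme, had 18.7, 47.8, 113 and 81.3 CPM in the inflamed livers, against 370.3, 381, 420.2 and 349 CPM in the quiet livers. Hnf4a, the nuclear receptor that maintains hepatocyte gene expression, had 231, 270.1, 517 and 363 CPM in the inflamed livers, against 948, 972, 856 and 918 CPM in the quiet livers. Both sets were separate in these 2 genes (-2.81 ± 0.56 and -1.49 ± 0.26). Of 73 nuclear-encoded respiratory chain genes 42 were lower and none higher (median -1.04), and all 7 measured protein-coding genes of the mitochondrial genome were lower (median -1.24). mt-Nd2, a subunit of complex I, had 1292, 1392, 1934 and 1721 CPM in the inflamed livers, against 4442, 4196, 5600.1 and 4202 CPM in the quiet livers. Mitochondrial transcripts took 1.683% to 1.91% of the inflamed libraries, against 2.998% to 3.971% of the quiet libraries. Endoplasmic reticulum and integrated stress genes were lower in 3 of 24 and higher in 2 (median -0.527); Atf3, a stress-induced transcription factor, was higher by 2.10 ± 0.28, and Herpud1, of protein quality control, was lower (-1.56).

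**Figure D3:**
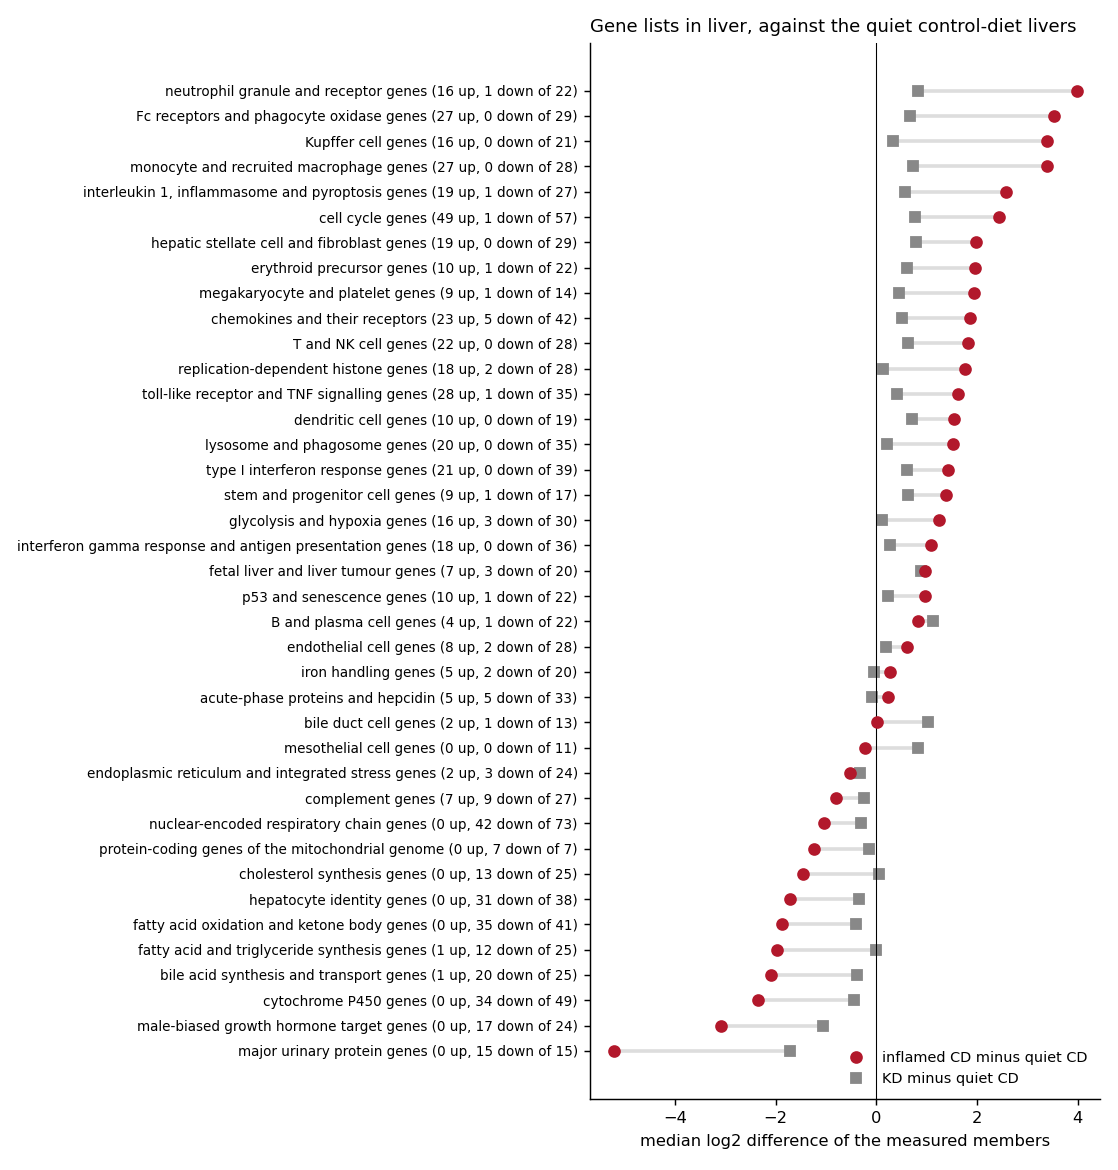
Median log2 difference of the members of each gene list with at least 7 measured genes, as inflamed minus quiet livers (dots) and as KD minus quiet livers (squares). For the inflamed livers the medians run from 3.99 in neutrophil genes to -5.22 in Mup genes, and the KD squares lie nearer 0 than the dots in the lists of largest difference.

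Within the inflamed set, livers 3 and 6 were set beside livers 7 and 5. These pairs follow the S100a8 values that chose the sets, and the genes were counted on the same livers, so the shares below are descriptions. In 1221 of the 2682 genes counted as higher (45.5%) livers 3 and 6 both exceeded livers 7 and 5, against 22.1% of all genes, and in 223 (8.31%) both were below them. In 1946 of the 2607 genes counted as lower (74.6%) livers 3 and 6 were both below livers 7 and 5, against 31.5% of all genes. The genes whose log2 CPM followed S100a8 most closely over the 8 CD livers were Adpgk (Pearson r 0.9955), Ier3 (0.995), S100a9 (0.994), Chst12 (0.9938) and Prpf38b (0.9937). These 8 points hold the split that chose the sets, so the r values are descriptions. Adpgk, an ADP-dependent glucokinase, had 141, 132, 77.9 and 74.0 CPM in the inflamed livers, against 32.1, 32.2, 32.7 and 32.8 CPM in the quiet livers. The quiet livers were within 1 CPM of each other, and the 2 pairs of inflamed livers were each close together. Ier3, an early response gene of stressed cells, had 67.3, 37.3, 9.44 and 10.2 CPM in the inflamed livers, against 0.893, 1.58, 0.935 and 0.875 CPM in the quiet livers.

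**Figure D4:**
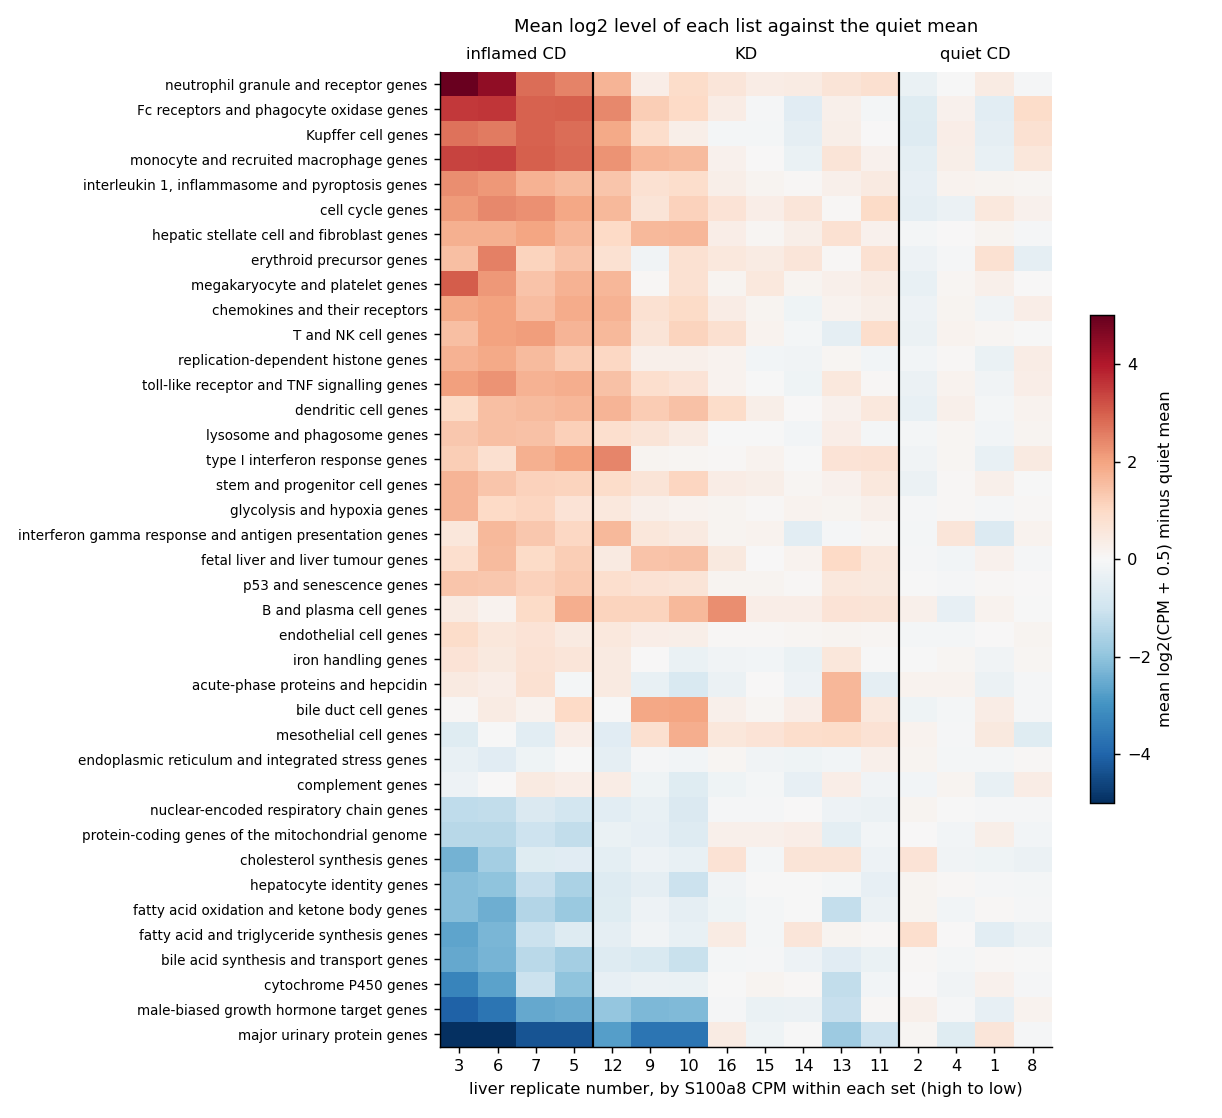
Mean log2(CPM + 0.5) of each gene list in each of the 16 livers, relative to the mean of that list over the quiet livers; livers are ordered by S100a8 within the inflamed, KD and quiet sets. Neutrophil genes fade from livers 3 and 6 to livers 7 and 5, type I interferon genes do the reverse, and KD liver 12 is the KD liver with the highest level of the neutrophil, monocyte, Kupffer cell and interferon lists.

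The KD livers offer data that the division did not use, and their S100a8 was 1.0867 to 2.4605 CPM in 7 livers and 7.6472 CPM in liver 12, so none reached 10 CPM. The question was whether other genes followed S100a8 there. With edgeR's quasi-likelihood test on the slope over the 8 KD livers, 866 of 18001 genes rose with S100a8 (4.81%) and 24 fell (0.133%) at an adjusted p under 0.05. Of the risers, 767 were among the genes counted as higher in the inflamed CD livers, which is 88.6% of the risers and 28.6% of the higher genes. Of all genes 14.9% were counted as higher and 4.81% rose. None of the genes counted as higher fell, 15 of those counted as lower fell, and none of them rose. At an unadjusted p under 0.05 there were 3144 genes, 2119 of them rising, and DESeq2 called 1366 rising and 222 falling. The KD test and the description of the CD livers share no library.

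These calls rested on KD liver 12. Without it edgeR called 0 genes in either direction, with 2547 genes at an unadjusted p under 0.05, and DESeq2 was not run without it. Without KD liver 15 there were 560 rising genes. A slope above 0 was found in 93% of the genes counted as higher, 4.33% of those counted as lower and 43.5% of all genes, and without liver 12 in 86.1%, 11.6% and 44.5%. The KD livers other than liver 12 had only 8 to 29 counts of S100a8, so their order by S100a8 is uncertain. Genes of a liver vary together and are not replicates, so these shares are descriptions. With a term for the Gm10800 signal, which was above 0.01% in 5 of the 8 KD livers, 187 genes rose and 3 fell. KD liver 12 was at or above the lowest inflamed liver in 29.1% of the genes counted as higher, KD liver 10 in 22.1% and the others in 1.75% to 13.9%. In the genes counted as lower, KD liver 10 was at or below the highest inflamed liver in 18.1%, KD liver 9 in 12.7%, KD liver 12 in 10.5% and the others in 0.959% to 5.45%.

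Fpr2 led the genes that rose. Its lowest, median and highest KD livers had 1.44, 2.66 and 37.7 CPM, the highest being liver 12, and its slope was 1.94 ± 0.13 log2 units per doubling of S100a8 (edgeR adjusted p = 0.001255). Others of the 8 most significant were Fam111a, Slc15a3, Fpr1, Samhd1, Tlr8 and Snx2, several of them known from phagocytes or antiviral defence, and all 8 lost the call without liver 12, at adjusted p of 0.1444 to 0.2836. Cfp, properdin of the alternative complement pathway, had a slope of 1.63 ± 0.14 (edgeR adjusted p = 0.001255). Of the lists, Fc receptors and phagocyte oxidase genes rose in 25 of 29, monocyte genes in 16 of 28, Kupffer cell genes in 14 of 21 and type I interferon genes in 19 of 39. Neutrophil genes rose in 5 of 22. Of all genes 4.81% rose, and without liver 12 no gene of any list was called. S100a9 itself had a slope of 0.71 ± 0.21 and an adjusted p of 0.1035 by edgeR, and did not pass. Hepatocyte identity, P450, bile acid, Mup and fatty acid oxidation lists had no gene that rose or fell.

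The genes that fell most significantly were Cgn, Carmil1, Pard3b, Olfr1029, Fam19a5, Ttc6, Rnf32 and Spsb4. Each of them lost its call with the Gm10800 term and without KD liver 12. Olfr1029 is an olfactory receptor gene, and the libraries with the Gm10800 signal held more counts of such genes. Olfactory, vomeronasal and taste receptor genes summed to 1242 to 2652 CPM in KD livers 10, 11, 14, 15 and 16. In KD livers 9, 12 and 13 they summed to 137.4 to 209.8 CPM. Cgn, the tight junction protein cingulin, had 35.9, 57.2 and 71.6 CPM in its lowest, median and highest KD livers and a slope of -0.38 ± 0.08 (edgeR adjusted p = 0.02319). It was also lower in the inflamed CD livers, at 8.59 to 40.1 CPM in the inflamed livers, against 55.2 to 68.2 CPM in the quiet livers. Its call was lost without KD livers 11, 12 or 14, with total-count scaling, with no filter and with the Gm10800 term.

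Brains of the same numbers were compared as a second set of data that the division did not use. The sample names number brains and livers of 26 months alike, but nothing in them says that a number is 1 mouse. The 4 CD brains with the numbers of the inflamed livers were set against the 4 with the numbers of the quiet livers, in one edgeR fit of all 28 brains that shares the spread over 5 groups. Of 22079 genes 80 were higher (0.362%) and 16 lower (0.0725%) at an adjusted p under 0.05, and 2133 had an unadjusted p under 0.05, of which 1148 were higher. DESeq2 called 143 higher and 47 lower. Fitted on the 8 brains alone, 1 gene, Lcn2, was called higher and none lower, with 1375 genes at an unadjusted p under 0.05. Leaving out each of the 8 brains in turn gave 27 to 142 higher and 0 to 70 lower genes, and brain 4 was the single one whose absence kept the higher count within 1.5 times (77).

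The genes higher in the brains with the inflamed numbers were led by genes of blood vessel lining. Vwf, von Willebrand factor, which endothelial cells store and release, had 187, 104, 63.0 and 63.6 CPM in brains with the inflamed numbers, against 15.5, 16.6, 13.3 and 12.8 CPM in brains with the quiet numbers (total-count scaling, in the same order of numbers). All 4 lay above all 4, brain 3 highest, with a log2 difference of 2.83 ± 0.37 and an edgeR adjusted p of 0.0004269. In the KD brains of 26 months Vwf was at 12.9 to 63.2 CPM, highest in brain 13, and in the 12-month brains at 16.5 to 31.7 CPM. Slc2a1, the glucose transporter of the blood-brain barrier, had 161, 158, 119.5 and 106 CPM in brains with the inflamed numbers, against 84.6, 71.0, 75.9 and 68.4 CPM in brains with the quiet numbers. The difference was 0.84 ± 0.11 (edgeR adjusted p = 0.0004269), again with no overlap. Ly6a, which mouse brain endothelium expresses, had 37.5, 41.1, 27.6 and 29.5 CPM in brains with the inflamed numbers, against 12.3, 13.3, 16.0 and 13.9 CPM in brains with the quiet numbers. It differed by 1.27 ± 0.19 (edgeR adjusted p = 0.0008988). The other 5 of the 8 most significant were Igfbp7, Acer2, Map3k6, Robo4 and Ptprb, with log2 differences of 0.87 to 1.75. All 8 kept their call without each brain in turn, at adjusted p of up to 0.01241, and lost it in the fit of 8 brains alone.

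Some genes known to respond to glucocorticoids or systemic inflammation were higher as well. Lcn2 had 12.1, 12.7, 6.27 and 10.5 CPM in brains with the inflamed numbers, against 0.549, 0.707, 0.448 and 1.46 CPM in brains with the quiet numbers. Its difference was 3.69 ± 0.72 (edgeR adjusted p = 0.01269), and the call was lost without brains 1, 2 or 3. Plin4, a lipid droplet protein, had 89.8, 103, 93.3 and 31.0 CPM in brains with the inflamed numbers, against 30.7, 24.5, 16.2 and 24.3 CPM in brains with the quiet numbers. Sgk1, a kinase induced by glucocorticoids, had 249, 267, 183 and 92.2 CPM in brains with the inflamed numbers, against 79.6, 88.3, 70.6 and 57.4 CPM in brains with the quiet numbers. Plin4 and Sgk1 differed by 1.73 ± 0.27 and 1.41 ± 0.24, with edgeR adjusted p of 0.001915 and 0.003621. These CPM are on total counts, and on the TMM scale of the test both genes overlapped through brain 5. It had 28.5 CPM of Plin4, against up to 30.4 CPM in brains with the quiet numbers, and 84.7 CPM of Sgk1, against up to 89.9 CPM. Of 24 glucocorticoid-responsive genes 8 were higher and none lower (median 0.471, with 22 above 0), against a median of -0.00692 over all genes. Of 30 brain endothelial and blood-brain barrier genes 13 were higher and none lower (median 0.537). These 2 lists and the cell type lists of brain were chosen after the brain values were seen, so their counts support nothing by themselves.

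Listed genes of most other brain cell types were not called, but not all of these lists had medians near 0. None of 16 microglia, 15 astrocyte, 15 oligodendrocyte and 16 neuron genes was called, and their medians were -0.012, -0.0356, 0.0533 and -0.0602. The 14 pericyte and vascular smooth muscle genes had 2 higher and none lower (median 0.414). None of 12 choroid plexus genes was called, but 10 were above 0 and their median was 0.409. Among the liver lists fitted in brain, the endothelial list had 8 of 23 higher and none lower (median 0.569). Some blood cell transcripts were higher as well, but not those of every blood cell list. None of 24 monocyte, 7 T and NK cell and 13 dendritic cell genes was called, with medians of 0.147, 0.207 and -0.0236. Of 11 B and plasma cell genes 1 was lower and none higher (median 0.16). Of 15 erythroid genes 2 were higher and none lower (median 0.652), with a summed level of 848 to 1436 CPM in brains with the inflamed numbers, against 767 to 1086 CPM in brains with the quiet numbers. Hbb-bt, a beta-globin gene that can share reads with its near copy Hbb-bs, had 23.6, 30.9, 22.01 and 35.99 CPM in brains with the inflamed numbers, against 11.2, 6.66, 10.2 and 7.78 CPM in brains with the quiet numbers (TMM scaling; edgeR adjusted p = 0.02766). Alas2 was the other (0.65 ± 0.12, edgeR adjusted p = 0.009254). Of 9 platelet genes 1 was higher, Vwf itself, which endothelium shares, and none lower (median 0.661), and of 11 neutrophil genes 2, Lcn2 and Lrg1, were higher and none lower (median 0.527). Lilr4b, Fcgr2b, Fermt3 and Srgn, known from leukocytes, were also higher, by 0.62 to 1.56. The part of blood cells in the vessel result was not tested. S100a8 was too low to be fitted in brain, at 1.27, 4.89, 0.795 and 1.34 CPM in brains with the inflamed numbers, against 0.706, 0.265, 0.359 and 0.390 CPM in brains with the quiet numbers. Brain 6 held the most, and the groups did not overlap. Other brains reached into the inflamed-number range. S100a8 was at 0.121 to 0.827 CPM in the KD brains of 26 months, which passes only the lowest of the brains with the inflamed numbers. In the 12-month brains it was at 0.0802 to 6.65 CPM, with a median of 0.266 CPM.

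Genes lower in the brains with the inflamed numbers included some of the secretory pathway and protein folding. Manf, a protective factor of the endoplasmic reticulum, had 21.6, 26.6, 28.7 and 29.3 CPM in brains with the inflamed numbers, against 38.1, 34.3, 35.5 and 38.3 CPM in brains with the quiet numbers. The difference was -0.48 ± 0.10 (edgeR adjusted p = 0.01736), and the call was lost without brains 1, 2, 3, 6 or 8. Chordc1, a co-chaperone of HSP90, differed by -0.46 ± 0.09 (edgeR adjusted p = 0.009254), and its call was lost without brain 8. Xbp1 and Pdia6, of the unfolded protein response, were also among the 8 most significant lower genes. Of 20 heat shock protein genes 2 were lower and none higher (median -0.329), with none above 0; this list too was chosen after the brain values were seen.

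**Figure D5:**
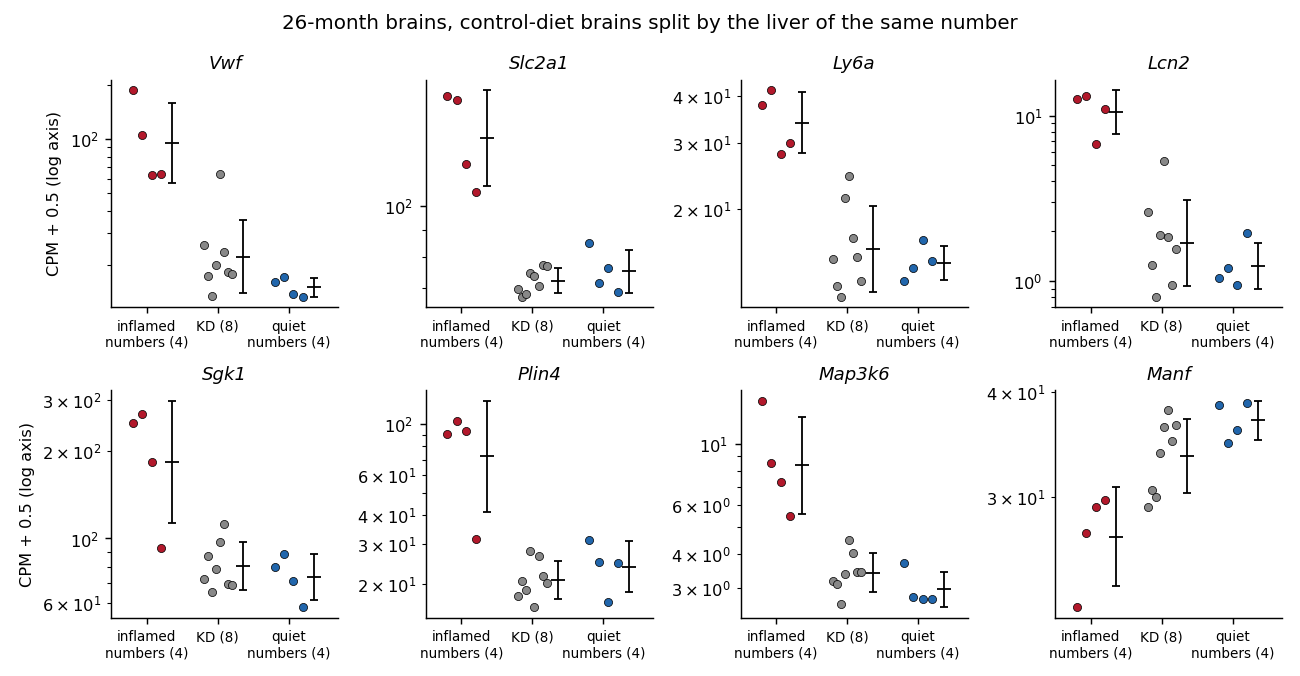
CPM on total counts (log axis) of 8 genes in brains: the 4 CD brains with the numbers of inflamed livers, the 8 KD brains of 26 months and the 4 CD brains with the numbers of quiet livers; each point is a brain and the bar its group mean ± SD on the log2 scale. Vwf, Slc2a1, Ly6a, Lcn2, Sgk1, Plin4 and Map3k6 are higher and Manf lower in the brains with the inflamed numbers.

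Genes called in brain overlapped with those counted in liver in 1 direction. Of the 80 genes higher in brain 73 were measured in both tissues, and 30 of these (41.1%) were counted as higher in the inflamed livers and 1 as lower, where 14.3% of all 16228 genes measured in both were counted as higher. The 30 genes are 1.29% of the genes counted as higher in liver. Of the 16 genes lower in brain, 12.5% were counted as lower and 12.5% as higher in liver. Over all genes measured in both, these shares were 12.1% and 14.3%. Over all 2317 genes counted as higher in liver and measured in brain the median brain difference was 0.0364, and over the 1971 counted as lower it was -0.0364. Gm10800 made up 0.05509% to 1.219% of the brain libraries with the inflamed numbers, against 0.06065% to 0.3857% of those with the quiet numbers, and its part in these calls was not tested.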

How the data were processed

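RNA of whole liver and whole brain was sequenced by the authors, who trimmed reads with Trimmomatic, mapped them with STAR to GRCm38 and estimated counts per gene with RSEM (versions not given in the sources used here). The deposited table holds whole-number counts per gene and library, not normalized, and no values outside the series. CPM and the log2 differences were computed here. Members and gene lists were chosen with earlier results of these data known.

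Genes were kept by filterByExpr over the 16 livers with diet as the group, which cannot be met by the 4 inflamed livers alone, and scaled by TMM, with a pseudocount of 0.5 CPM. The S100a8 rule used total counts. The inflamed and quiet livers were described without a test. The KD livers and the brains were tested with edgeR 4.0.16 quasi-likelihood fits in R 4.3.3, with Benjamini-Hochberg adjustment over all genes fitted and a threshold of 0.05, and with DESeq2 1.42.0 as an alternative. The code was checked on simulated data. Replicates are separate mice according to the study. No sequence of a protein was used here.

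Named genes were the 12 of largest difference in each direction at a mean of at least 5 CPM, up to 3 per list at 1 CPM, the 8 of smallest p per direction in each test, and the 5 most like S100a8, leaving out predicted genes and pseudogenes. A few genes that this rule or a list would name are not reported here. Chosen after their values were seen were Ackr4, Afp, Axin2, C1qa, C1qb, C1qc, C3, Ccl2, Ccl27a, Ccr9, Cdkn1a, Clec4g, Crp, Cxcl11, Cxcl12, Cxcl2, Cyp2a4, Cyp2e1, Cyp7a1, F5, Fasn, Fech, Fgb, Glul, Hlf, Hmox1, Hp, Il1b, Il1rap, Lgr5, Mcm10, Ngp, Orm1, Pklr, Retnlg, Saa1, Saa2, Scd2, Slc10a1, Sod2, Tbx3, Tfr2, Tnf, Ttr, Vegfa, Wfdc21 and Wnt2 in liver, and Alas2, Fcgr2b, Fermt3, Hbb-bt, Lcn2, Lilr4b, Lrg1, Plin4, Sgk1 and Srgn in brain.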

Additional observations from a re-analysis of the deposited data

Results flagged for a closer look

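Among 66 sets of values examined within a group of livers, 6 held 1 liver far from the rest of its group, and chance alone sets apart about 1 in 20. Quiet liver 1 was one of them in 4 measures. Its mitochondrial share was 3.971% of counts, against 2.998% to 3.073% in the other quiet livers. It had counts in 44980 genes, against 25030 to 25651, and Gm10800 took 1.614% of its counts, against 0.002101% to 0.003725%. Its level of Ltf, the granule protein lactotransferrin, was 2.2712 CPM, against 0 to 0.0875 CPM.

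Inflamed liver 5 held 4.3777 CPM of Cyp4a12b, the male-biased fatty acid hydroxylase gene, against 0.1311 to 0.24091 CPM in the other inflamed livers. KD liver 12 had S100a8 at 7.6472 CPM, against 1.0867 to 2.4605 CPM in the other KD livers, and the genes called along S100a8 in KD livers rest on it.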

How the results depend on the processing

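Counts in CD livers held within 1.5 times under most choices. The genes counted as higher and lower were 2849 and 2437 with edgeR's relative log expression factors in place of TMM. They were 2933 and 2750 with no filter and 2815 and 2551 at a mean of at least 1 CPM. With a pseudocount of 2 CPM they were 2281 and 2007. Without each CD liver in turn they ranged over 2654 to 3231 and 2404 to 2867. Scaling by total counts left 1726 lower genes, and with no limit on the difference there were 4436 higher and 5152 lower genes, since fewer conditions applied. Of 143 differences of named genes, 16 moved by more than their spread under total counts and 24 under a pseudocount of 2 CPM, and none changed sign among those counted.

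In the KD livers DESeq2 called 1366 rising and 222 falling genes, the fit with no filter left 5 falling, and a term for Gm10800 left 187 rising and 3 falling. Without each KD liver the calls ranged over 0 to 1009 rising and 0 to 103 falling. In the brains DESeq2 called 143 higher and 47 lower genes, total counts left 7 lower, no filter left 2 lower, and the 8 brains alone gave 1 higher and 0 lower. Without each brain the calls ranged over 27 to 142 higher and 0 to 70 lower. Apart from fewer libraries or more genes tested, the cause was not tested. No paired analysis was possible because the inflamed and quiet livers carry different numbers. In livers with under 3 counts of a gene, depth limits what can be seen.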
